A study of Mus musculus with 6 samples.

Results

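The genes described here are 9 components of the sterol sensing and cholesterol handling system: the transcription factor genes Srebf1 and Srebf2, the escort gene Scap, the retention genes Insig1 and Insig2, the receptor ligase gene Mylip, and the sterol transfer genes Stard4, Npc1 and Npc2. They were taken by name from a table of 49548 mouse genes, and each name matched 1 row. The table holds 3′ mRNA sequencing of cultured synovial fibroblasts (SFs), the mesenchymal cells of the joint lining, from the ankle joints of hTNFtg mice. These mice carry a human TNF transgene and develop arthritis spontaneously, and both groups of libraries carry it, so no wild-type reference enters the comparison. SFs were given no treatment according to the labels (vehicle in the study's methods) or 500 μM amisulpride for 48 h, with 3 libraries per group. Amisulpride is an antipsychotic that blocks dopamine receptors. The mice were 8-week-old CBA C57BL/6J animals with established disease. According to the study's methods CD45+ leukocytes were removed from the cultures with antibody-coated beads, and sex and any pooling of mice are not in the labels.

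SREBP proteins are made as precursors in the membrane of the endoplasmic reticulum, where SCAP binds them. When sterols are scarce, SCAP carries the precursor to the Golgi, where proteases free the part that enters the nucleus and switches on genes of cholesterol and fatty acid synthesis. When sterols are plentiful, INSIG proteins hold SCAP back. Srebf2 and Insig1 are themselves SREBP targets, while MYLIP, an LXR target, marks lipoprotein receptors for degradation, NPC1 and NPC2 move cholesterol out of lysosomes and STARD4 carries it between membranes.

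RefSeq promoter windows (build GRCm38.p6, the mm10 assembly, from 250 bases before to 50 bases after a transcript start) were found for 7 of the 9 genes, 12 windows in all, and none for Stard4 and Npc1. The windows of Insig1, the retention gene that passed the thresholds below, and of Srebf2, the factor gene known as its own target, are printed 5′ to 3′ on the plus strand, chr5:28071162-28071461 and chr15:82147019-82147318. Capitals mark matches on either strand to TCACNCCA (a sterol response element core), CCAAT (NF-Y), GGGCGG (SP1) and CACGTG (E-box).
Insig1: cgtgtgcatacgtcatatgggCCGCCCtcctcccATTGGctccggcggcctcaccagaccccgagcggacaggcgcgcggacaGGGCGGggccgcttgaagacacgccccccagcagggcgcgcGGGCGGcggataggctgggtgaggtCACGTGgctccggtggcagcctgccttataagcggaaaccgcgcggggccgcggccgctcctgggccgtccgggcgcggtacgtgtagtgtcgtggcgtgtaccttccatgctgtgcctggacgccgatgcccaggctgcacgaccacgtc
Srebf2: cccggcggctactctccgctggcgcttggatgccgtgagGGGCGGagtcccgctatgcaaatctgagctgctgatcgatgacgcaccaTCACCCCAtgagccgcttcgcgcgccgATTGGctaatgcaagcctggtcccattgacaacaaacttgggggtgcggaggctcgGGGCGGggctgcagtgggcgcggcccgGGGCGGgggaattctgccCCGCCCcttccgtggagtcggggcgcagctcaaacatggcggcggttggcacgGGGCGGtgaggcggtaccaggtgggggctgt
The TCACNCCA motif was found in 1 of the 12 windows, that of Srebf2, where its first base lies at position -162 relative to the start. Of all 32851 promoter windows, 4.36% held it. In the gene lists described below it was in 2 of 18 windows of sterol synthesis, 1 of 16 of fatty acid synthesis, 4 of 18 of SREBP processing and 0 of 13 of SREBP and INSIG turnover. CCAAT was in 7 of the 12 windows (37.4% of all windows), GGGCGG in 10 (35.7%) and CACGTG in 3 (7.15%), those of Scap and Insig1. The windows of Scap overlap, and their CACGTG is the same site, so windows of a gene are not independent. These are matches of letters, and binding was not measured.

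Library totals were 3832980 to 4504242 normalised counts. Whole-read steps in the values gave about 2520000 to 4710000 reads for 5 libraries, fewest in amisulpride replicate 3; the step could not be read in untreated replicate 1. Amisulpride replicate 3 also stood apart on the first principal component (73.9, against -38.2 to 10.4 in the others, 37.1% of the variance). Values without it are given for some of the genes and lists where they differ. All 12 fibroblast markers were measured above the filter, 4 lower and 8 higher, and none passed the thresholds below; without amisulpride replicate 3, Prg4, the lubricin gene of lining fibroblasts, did (log2 fold change -1.21, against -0.92 with all libraries). Myeloid transcripts were present at summed normalised counts of 2484 to 4302 in untreated and 2377 to 4306 in amisulpride-treated SFs. None of the 14 myeloid markers was at 0 in every library; 8 were lower and 6 higher, with a median log2 fold change of -0.14. Csf1r and Cd14, myeloid receptors, were lower past the thresholds (-1.01 and -1.74). Among the others the macrophage genes Adgre1 and C1qb had log2 fold changes of 0.83 and 0.75. Ptprc and Cx3cr1 had -1.16 and -1.10 (limma unadjusted p = 0.104 and 0.0584). Without amisulpride replicate 3, Adgre1 was higher past the thresholds (1.04), and 7 of the 14 markers were lower. Endothelial sums were at most 17 and lymphocyte sums at most 33, with Cdh5 and Cd3e at 0 in every library. Cd3d, another lymphocyte marker, had 11 to 33 normalised counts. Muscle marker sums were 16 to 55 in untreated and 24 to 44 in treated SFs, with Acta1 at 8 to 44. The part of myeloid RNA in the results below was not tested. In bulk RNA, fewer cells expressing a gene and less RNA per cell cannot be told apart.

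Stard4 and Insig1 fell after amisulpride treatment, to less RNA in each treated library than in any untreated one. Mean Stard4 was 3.07-fold higher in untreated than in treated SFs, and mean Insig1 2.41-fold higher. Srebf1, Srebf2 and Insig2 had lower means without passing the thresholds, and the estimates for Scap, Mylip, Npc1 and Npc2 lay between -0.14 and 0.25 on the log2 scale. Calls used the thresholds of the study's methods, a difference of 1 or more in either direction on the log2 scale and a p under 0.05 before adjustment (limma on log2 of the normalised count plus 1). Of the 9 genes, 2 passed them, both lower, against 5.70% of the 12614 genes tested (3.01% lower and 2.69% higher). The median log2 fold change of the 9 was -0.44, against 0.00 over all genes tested, and 7 of the 9 estimates were below 0.

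None of the 9 reached a limma adjusted p under 0.05, which 0.285% of all genes did, while 3 of the 9 (Stard4, Insig1 and Srebf1) and 1373 of all genes had an unadjusted p under 0.05. With the replicate number as a block, as described with the processing, 1 of the 9, Stard4, had a limma adjusted p under 0.05. With that block, 263 of the 12614 genes tested had one. Treated and untreated values did not overlap for 4 genes that were lower (Srebf1, Insig1, Insig2 and Stard4; 8.66% of all genes) and for 1 that was higher (Npc2; 7.80% of all genes). The methods call the libraries biological replicates but do not say whether they came from separate mice, so p-values measure the spread between these libraries.

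**Figure D1:**
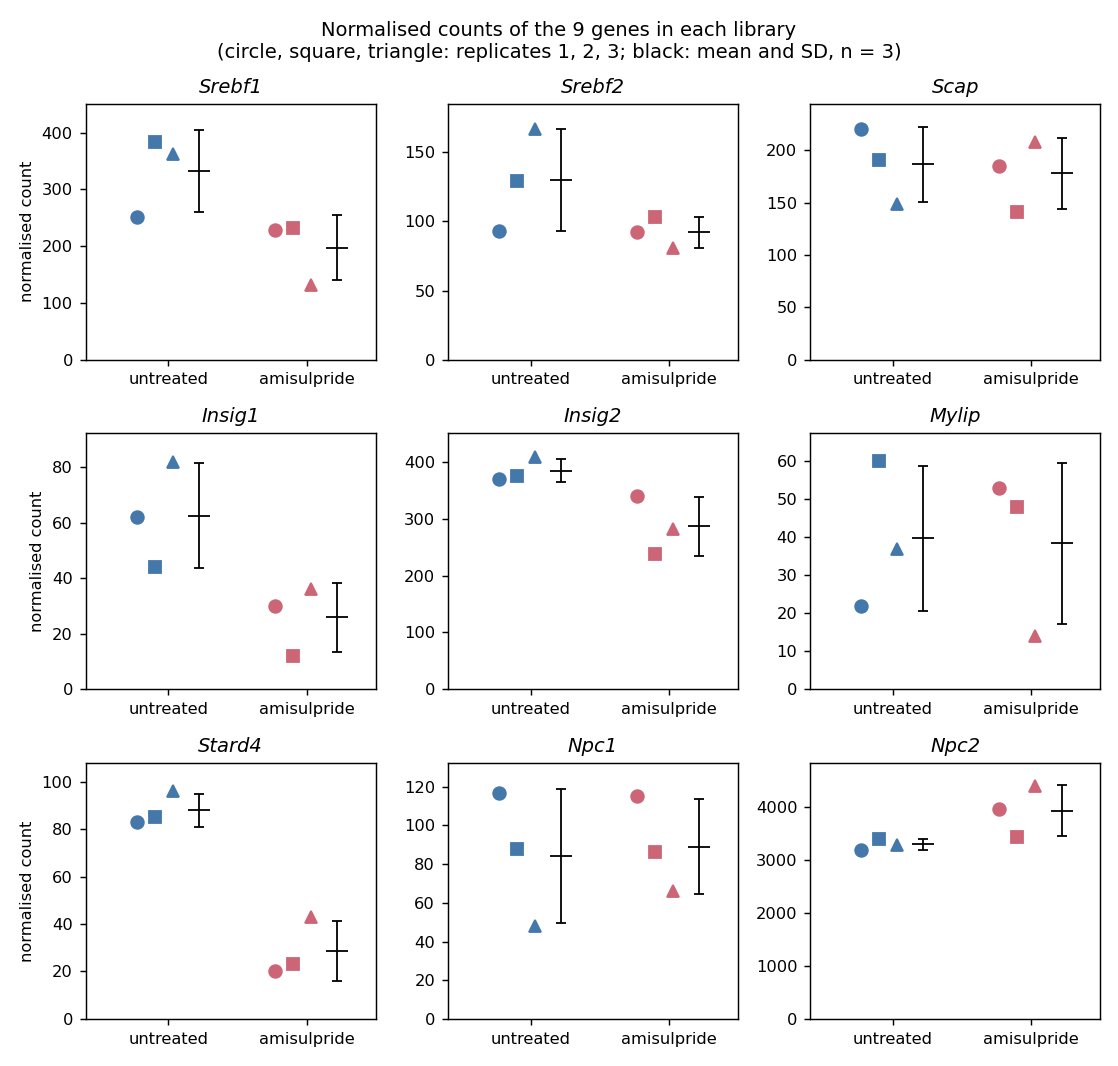
Normalised counts (vertical axes, from 0) of each of the 9 genes in the 3 untreated (blue) and 3 amisulpride-treated (red) libraries, with the mean and SD in black. Stard4 spans 83 to 96 in untreated and 20 to 43 in treated libraries, whereas Scap, Mylip and Npc1 overlap between the groups.

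Srebf1 (ENSMUSG00000020538, mm10 chromosome 11, 60199089 to 60222581, minus strand) encodes the SREBP that mainly serves fatty acid genes. It had 251, 384 and 363 normalised counts in untreated replicates 1 to 3 and 228, 232 and 131 in the treated ones. The groups were separated by the narrow step between 251 and 232, and the lowest value was that of amisulpride replicate 3. Its log2 fold change was -0.78 (SE 0.30, n = 3 per group, 95% confidence interval -1.43 to -0.12, limma adjusted p = 0.355), short of the fold threshold. Without amisulpride replicate 3 the estimate was -0.51 (limma, unadjusted p = 0.0751).

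Rai1, on the opposite strand, meets the 3′ end of Srebf1 and had 37, 42 and 38 normalised counts in untreated and 40, 63 and 225 in treated SFs. The high Rai1 value and the low Srebf1 value were in the same library. Whether the counting used strand is not given in the sources used here, and the part of this overlap in the Srebf1 value was not tested. Mir6921, which lies inside Srebf1 on the same strand, was listed at 62, 145 and 114 in untreated and 61, 88 and 41 in treated SFs, and its reads cannot be told apart from those of Srebf1.

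Srebf2 (ENSMUSG00000022463, chromosome 15, 82147266 to 82205376, plus strand) encodes the SREBP that mainly serves cholesterol synthesis. Its normalised counts were 93, 129 and 167 in untreated and 92, 103 and 81 in treated SFs. The groups overlapped, since untreated replicate 1 lay at the treated level. The log2 fold change of -0.46 (SE 0.29, n = 3 per group) had a 95% confidence interval of -1.09 to 0.18, which holds both no change and a 2-fold lower level. Mir33, the microRNA within a Srebf2 intron, was listed at 0 in every library, and 3′ mRNA libraries are not made to capture it. The ratio of Srebf2 to Srebf1 within each library was higher by 0.32 on the log2 scale in treated SFs (untreated -1.37 ± 0.23 and treated -1.05 ± 0.32, SD, n = 3), with an exact two-sided permutation p of 0.300 (0.450 adjusted over 3 ratios). With 3 against 3 that test cannot go below 0.1.

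The escort and retention genes differed from one another in their estimates. Scap (chromosome 9, 110333288 to 110384950, plus strand) had 220, 191 and 149 normalised counts in untreated and 185, 141 and 208 in treated SFs. The ranges covered each other almost wholly, and the log2 fold change was -0.07 (SE 0.27, 95% confidence interval -0.66 to 0.52).

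Insig1 (ENSMUSG00000045294, chromosome 5, 28071363 to 28078662, plus strand), the INSIG gene that SREBP itself induces, had 62, 44 and 82 normalised counts in untreated and 30, 12 and 36 in treated SFs. Every treated library was below every untreated one, and amisulpride replicate 2 was lowest. Its log2 fold change was -1.33 (SE 0.44, n = 3 per group, 95% confidence interval -2.29 to -0.37, limma unadjusted p = 0.0111, adjusted p = 0.265). The call was lost without untreated replicate 3 (-1.11, limma unadjusted p = 0.0576) and without amisulpride replicate 2 (-0.87), and held without amisulpride replicate 3 (-1.62). At 12 to 82 normalised counts, where 3 reads are worth 2.50 to 5.37 normalised counts, counting error is a larger share of Insig1 than of the more abundant genes.

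Insig2 (chromosome 1, 121304353 to 121332589, minus strand), the INSIG gene that does not depend on SREBP in most cells, had 370, 375 and 408 normalised counts in untreated and 340, 238 and 281 in treated SFs. The groups did not overlap, but amisulpride replicate 1 was close to the untreated libraries and the estimate was -0.44 (SE 0.24, 95% confidence interval -0.96 to 0.09, limma unadjusted p = 0.0941). The ratio of Insig1 to Insig2 within each library was -2.64 ± 0.39 on the log2 scale in untreated and -3.53 ± 0.64 in treated SFs (SD, n = 3). The difference was -0.89 (exact two-sided permutation p = 0.200, 0.450 adjusted over 3 ratios, in a design that cannot go below 0.1). Within same-numbered libraries it was -0.90, -1.14 and -0.63, lower in 3 of 3 pairs, and an exact test over 3 pairs cannot go below 0.25.

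**Figure D2:**
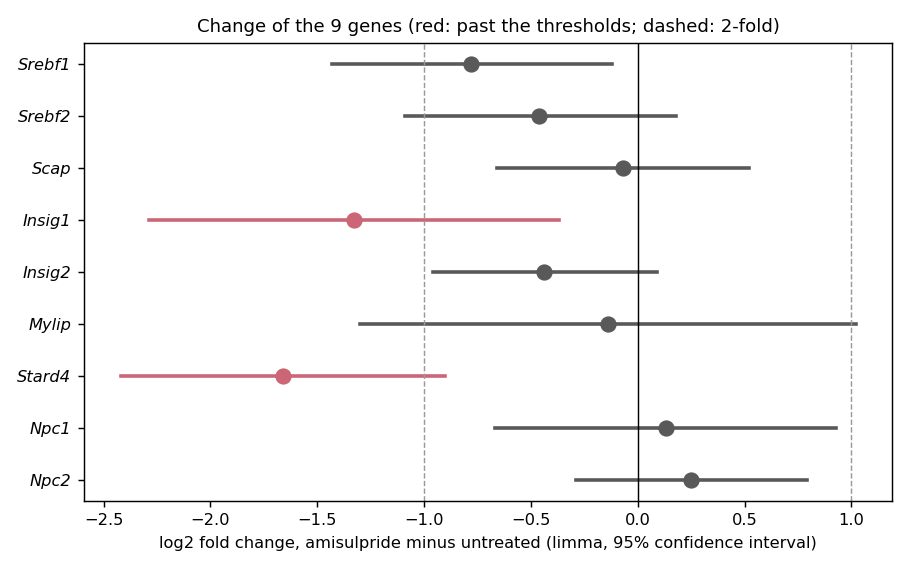
Log2 fold change (horizontal axis, amisulpride minus untreated) of each gene with its 95% confidence interval from the limma model. Insig1 and Stard4, in red, lie at -1.33 and -1.66, past the dashed line of a 2-fold change, and the Mylip interval is the widest, from -1.30 to 1.02.

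Mylip (chromosome 13, 45389742 to 45412019, plus strand), the ligase that removes lipoprotein receptors from the cell surface, had 22, 60 and 37 normalised counts in untreated and 53, 48 and 14 in treated SFs. Replicates of each group differed by more than the groups did, and the log2 fold change of -0.14 (SE 0.53) had a 95% confidence interval of -1.30 to 1.02. Without amisulpride replicate 3, the lowest of the treated, the estimate was 0.45. That interval holds a 2-fold change in either direction.

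Among the transfer genes, Stard4 (ENSMUSG00000024378, chromosome 18, 33199355 to 33213862, minus strand), a soluble sterol carrier induced when SREBP is active, had 83, 85 and 96 normalised counts in untreated and 20, 23 and 43 in treated SFs. The untreated libraries lay close together and every treated library was well below them, with amisulpride replicate 3 the highest of the treated. The log2 fold change was -1.66 (SE 0.35, n = 3 per group, 95% confidence interval -2.42 to -0.90, limma unadjusted p = 0.000513, adjusted p = 0.0764). It was the lowest p of the 9 genes and number 83 of the genes tested. With the replicate block the limma adjusted p was 0.0126, and without amisulpride replicate 3 the log2 fold change was -1.98 with a limma adjusted p of 0.00975. Over all alternatives the adjusted p ranged from 0.00778 to 0.341, and Stard4 stayed past the study thresholds in each.

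Npc1 (chromosome 18, 12189693 to 12236400, minus strand), the membrane protein through which cholesterol leaves the lysosome, had 117, 88 and 48 normalised counts in untreated and 115, 86 and 66 in treated SFs. Same-numbered libraries were close to each other at replicates 1 and 2, and the log2 fold change was 0.13 (SE 0.36, 95% confidence interval -0.67 to 0.93). At its 3′ end Npc1 meets 3110002H16Rik on the opposite strand, which had 19 to 37 normalised counts in untreated and 11 to 48 in treated SFs.

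Npc2 (chromosome 12, 84754560 to 84773112, minus strand), the soluble lysosomal protein that hands cholesterol to NPC1, had 3185, 3395 and 3280 normalised counts in untreated and 3950, 3434 and 4393 in treated SFs. The groups did not overlap in the deposited scaling, but amisulpride replicate 2 was only just above the highest untreated library. The log2 fold change was 0.25 (SE 0.24, 95% confidence interval -0.29 to 0.79, limma unadjusted p = 0.329). With scaling to equal totals it was 0.18 and with quantile normalisation 0.15. The Npc1 to Npc2 ratio differed by -0.12 on the log2 scale (untreated -5.36 ± 0.66 and treated -5.48 ± 0.50, SD, n = 3; exact two-sided permutation p = 0.800, also after adjustment).

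The genes whose pattern over the 6 libraries was most like that of the 2 genes with the lowest p were found by the root mean square difference of centred log2 values. For Stard4 they were Hist2h3c2 (0.23), Ndrg2 (0.25) and Mmp17 (0.25), and for Insig1 they were Pdgfc (0.16), Acta2 (0.16) and Clspn (0.20). Acta2, the smooth muscle actin of contractile fibroblasts, had 6413, 5030 and 9384 normalised counts in untreated and 2714, 1253 and 4586 in treated SFs, with amisulpride replicate 2 lowest as for Insig1. None of these 6 belongs to the sterol lists below.

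The machinery that acts on these 9 genes' products was described by lists that exclude the 9. Of 17 genes of SREBP processing (the Golgi proteases, the COPII coat that SCAP travels in and their partners), 8 were lower and 9 higher, none past the thresholds, with a median log2 fold change of 0.04. The protease genes Mbtps1 and Mbtps2 had log2 fold changes of -0.10 (SE 0.28) and 0.25 (SE 0.30). Of 15 genes of SREBP and INSIG turnover, 9 were lower and 6 higher, none past the thresholds, with a median of -0.04. Of 24 sterol transport genes tested, 10 were lower and 14 higher, none past the thresholds, and the median was 0.04. Calls in these lists appeared under some alternatives. Without amisulpride replicate 2, 3 sterol transport genes were higher and 1 SREBP and INSIG turnover gene was lower past the thresholds. Sterol transport also had 1 higher past them without amisulpride replicate 1 and 1 with library weights. SREBP processing had none under any alternative. Without amisulpride replicate 3, 9 SREBP processing genes and 12 sterol transport genes were lower, with medians of -0.01 and -0.06. Mbtps1 and Mbtps2 then had log2 fold changes of 0.08 and 0.19. Mbtps1 and Mbtps2 were chosen for their roles after their values were seen.

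Sterol synthesis genes, known targets of SREBP proteins, were mostly past the thresholds. All 20 genes of sterol synthesis had estimates below 0, and 14 fell past the thresholds, 4 of them with a limma adjusted p under 0.05; the median log2 fold change was -1.19, beside -1.66 for Stard4 and -1.33 for Insig1. Fdps, which makes farnesyl diphosphate, had 150, 126 and 168 normalised counts in untreated and 39, 21 and 20 in treated SFs (log2 fold change -2.48, SE 0.33). Mvd, of the mevalonate pathway, fell by 1.76 on the log2 scale and Cyp51, the lanosterol demethylase, by 1.54. With 1 library left out, 19 or 20 of the 20 were lower and 11 to 14 were past the thresholds. With library weights 19 were lower. In the unweighted fit of all 6 libraries, the estimates nearest 0 were -0.05 and -0.25 (limma unadjusted p = 0.889 and 0.626). Without amisulpride replicate 3 these estimates were 0.12 and -0.98. The 4 with an adjusted p under 0.05 became 0 when any 1 of the 3 untreated libraries was left out. They became 1, 0 and 6 when amisulpride replicates 1, 2 and 3 were left out in turn, and were 10 with the replicate block and 11 with library weights (limma).

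Of 13 fatty acid synthesis genes tested of 16 listed, 12 were lower and 5 fell past the thresholds, with a median log2 fold change of -0.62. Scd2 and Scd1, desaturases that make monounsaturated fatty acids, had log2 fold changes of -2.25 and -2.20, and Fasn, the fatty acid synthase, of -1.32. With 1 library left out, 3 to 5 of the 13 were past the thresholds, fewest without amisulpride replicate 2. The 2 with a limma adjusted p under 0.05, Scd2 and Scd1, became 0 when that library or any 1 of the untreated ones was left out.

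Of 15 lipoprotein uptake genes tested of 20 listed, 2 fell and 1 rose past the thresholds, none with a limma adjusted p under 0.05, with a median of -0.26; 2 had one with the replicate block. Lrp8, a receptor of the lipoprotein receptor family, had 35, 22 and 24 normalised counts in untreated and 14, 13 and 9 in treated SFs (log2 fold change -1.10, SE 0.43), and Dab2, an endocytic adaptor, had 312, 283 and 245 against 543, 563 and 655 (1.07, SE 0.23). Without amisulpride replicate 3, 1 of 14 tested was past the thresholds and neither Lrp8 (-0.92) nor Dab2 (0.99) was. No gene of the list was past them in the upward direction without untreated replicate 3 or with scaling to equal totals. Of 10 genes of the LXR list tested of 12, the list of the regulators that induce Mylip and their targets, 2 fell (Arl4c, -1.44, and Abcg1, a cholesterol exporter, -1.95) and 1 rose (Pltp, a phospholipid transfer protein, 1.58), with a median of -0.14. Abcg1 was low, at 21 to 27 normalised counts in untreated and 4 to 11 in treated SFs.

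**Figure D3:**
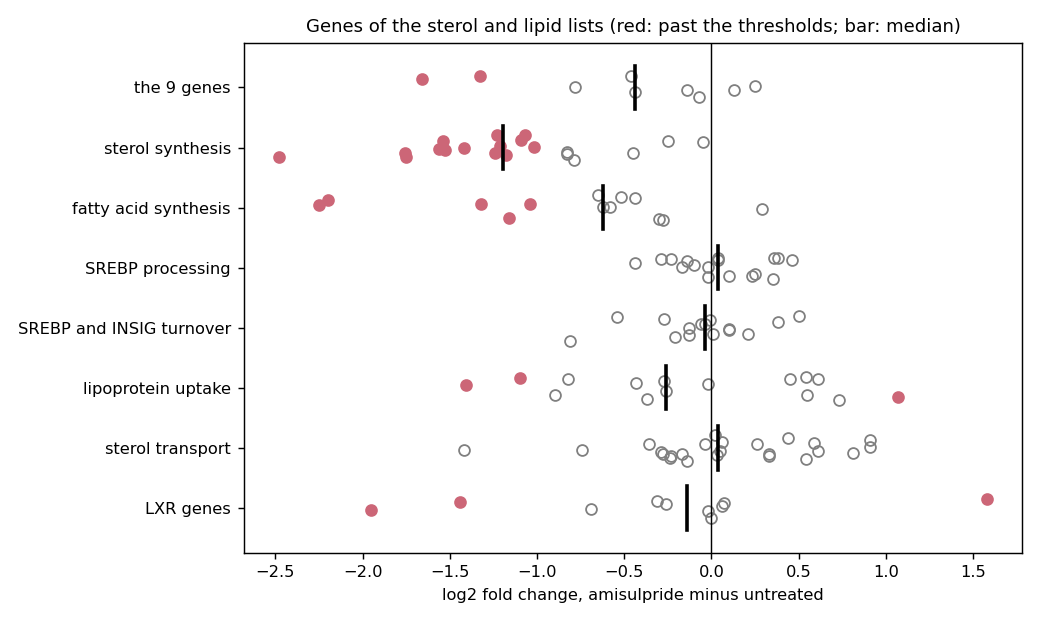
Log2 fold changes (horizontal axis, amisulpride minus untreated) of the 9 genes and of the tested genes of 7 lists, with genes past the thresholds in red and the median as a black bar. Sterol synthesis has its median at -1.19, while the medians of SREBP processing and SREBP and INSIG turnover are 0.04 and -0.04 with no red point.

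Other settings moved the estimates of the 9 genes less than leaving out single libraries did for Insig1, Scap and Npc1. With 1 library left out, Stard4 ranged from -1.98 to -1.45 and Insig1 from -1.62 to -0.87 on the log2 scale. Mylip ranged from -0.50 to 0.45, Scap from -0.22 to 0.09 and Npc1 from -0.22 to 0.41, so that no direction is given for these.

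**Figure D4:**
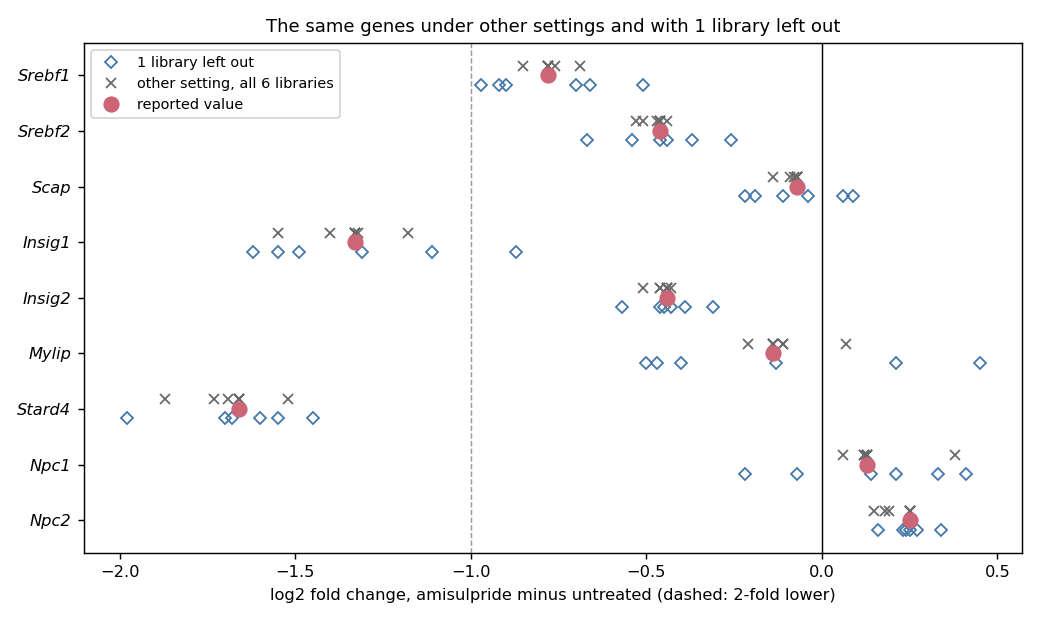
Log2 fold change (horizontal axis) of each gene as reported (red circles), with 1 library left out (blue diamonds) and under other settings with all 6 libraries (crosses). Every Stard4 value lies at or below -1.45, and the Scap, Mylip and Npc1 values fall on both sides of 0.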

How the data were processed

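Total RNA of cultured hTNFtg SFs was made into Lexogen QuantSeq 3′ libraries and sequenced on an Ion Proton. According to the study's methods and the submitters' processing notes, the authors mapped reads to mm10 with TopHat2 and the unmapped rest with Bowtie2, counted them per gene with GenomicRanges and normalised them with DESeq; versions and the use of strand are not given in the sources used here. The deposited values are a score rather than raw counts: normalised counts that were rounded. Scaling by 1 factor for each library is inferred from the whole-read steps, which could not be read in untreated replicate 1. The table's own fold changes and p-values were not used, nor were 12 further columns with the same libraries on a log2 scale and per gene model length.

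Genes with at least 10 normalised counts in at least 3 of the 6 libraries (12614, all 9 genes among them) were modelled on log2 of the normalised count plus 1 (limma 3.58.1, R 4.3.3), with moderation along the mean trend, and p-values were adjusted by Benjamini-Hochberg over all genes tested. A count model was not used. The fit was tested on simulated data. Intervals are at 95%, and floors of 3 reads cover counting error only. Ratios were compared by exact permutation over libraries. All 9 genes are named, and of each list the 3 genes at most with the lowest p among those past the thresholds; 1 gene of the lipoprotein uptake list is not reported here by name. The 9 genes and the lists were chosen with earlier results of these data known.

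Groups share replicate numbers. Deviations from the group means of same-numbered libraries correlated at 0.23, 0.24 and 0.20, and of other pairs at -0.15 to -0.08. Deviations within a group cancel out for each gene, so positive values for same-numbered libraries require negative ones elsewhere on average. The negative values therefore add no separate support. The numbers were taken to pair the libraries, and the pairing comes from the data and not from the labels. A fit with this replicate block was made beside the unblocked one.

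Alternatives were a pseudocount of 5, no filter, a minimum of 20, scaling to equal totals, quantile normalisation, library weights, no variance trend, the replicate block and leaving out each library. The counts per list without single libraries were added after seeing the data. Sequence words of 31 bases from the last 500 bases of each gene's transcripts (GENCODE, GRCm38) were compared with all other genes: at most 7.13% were shared with any other gene, for Insig1 with Gm37784, which had at most 1 normalised count.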

Additional observations from a re-analysis of the deposited data

How the results depend on the processing

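Of the log2 fold changes of the 9 genes under each alternative, 117 kept their direction and their side of the thresholds, 2 were weaker (both Insig1) and 7 reversed (Scap, Mylip and Npc1). The reversed values were Mylip at 0.07 with library weights and, with 1 library left out, values in the ranges -0.22 to 0.09 (Scap), -0.50 to 0.45 (Mylip) and -0.22 to 0.41 (Npc1). The number of the 9 genes past the study thresholds was 2, or 1 to 2 with 1 library left out. The number with an adjusted p under 0.05 was 0, but 1 with library weights, 1 with the replicate block and 0 to 1 with 1 library left out. Srebf1 had an unadjusted p above 0.05 in limma without untreated replicate 2, untreated replicate 3 or amisulpride replicate 3.

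Over all genes, 1313 were past the study thresholds with no filter against 719. The number with an adjusted p under 0.05 was 36, and became 57 with a pseudocount of 5, 57 with no filter, 66 with quantile normalisation, 195 with library weights, 263 with the replicate block and 0 to 120 with 1 library left out. The replicate block changed no other call of the 9 genes than that of Stard4. The causes were not tested. Where the whole-read step could be read, libraries held about 2520000 to 4710000 reads. Mylip had 14 to 60 normalised counts and Insig1 12 to 82, and Stard4 had 20 to 43 in treated SFs. The part of counting error in the spread of these low genes was not tested.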

Other observations

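Lysosomal genes of the sterol transport list, chosen after their values were seen and none past the study thresholds, had estimates of both signs. Lipa, the acid lipase that frees cholesterol from lipoprotein esters, had 98, 158 and 179 normalised counts in untreated and 220, 178 and 385 in treated SFs, which overlap by 1 library (log2 fold change 0.81, SE 0.34, limma unadjusted p = 0.0359). Scarb2, a lysosomal membrane protein, had 798, 1015 and 951 against 1536, 1467 and 1179, with no overlap (0.59, SE 0.24, limma unadjusted p = 0.0295). Lamp2, another lysosomal membrane protein, had a log2 fold change of 0.61 (limma unadjusted p = 0.0518). Lamp1, of the same family, had 3739, 3390 and 3332 normalised counts in untreated and 4413, 3066 and 1938 in treated SFs, which overlap (-0.23, SE 0.31, limma unadjusted p = 0.478). This negative estimate depended on amisulpride replicate 3, without which Lamp1 was at 0.08. Lipa, Scarb2 and Lamp2 then had log2 fold changes of 0.49, 0.71 and 0.75.

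Rnf145, a sterol-responsive ubiquitin ligase of the endoplasmic reticulum and also chosen after its values were seen, had 553, 464 and 477 normalised counts in untreated and 262, 416 and 208 in treated SFs. The groups did not overlap, and the log2 fold change was -0.81 (SE 0.28, limma unadjusted p = 0.0156, adjusted p = 0.299).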
